A study of Homo sapiens with 9 samples.

Results

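Imprinted genes are expressed from the copy inherited from 1 parent only, and several human imprinted domains carry long tandem arrays of small RNA genes. The 3 arrays described here lie on chromosomes 14, 15 and 19, and their members are the plus-strand alignments of a small RNA profile of K562 cells that fell inside chr14:101290000-101535000 (14q32, 245 kb), chr15:25290000-25525000 (15q11-q13, 235 kb) or chr19:54169000-54266000 (19q13.42, 97 kb) on GRCh37. Together they held 978 of the 3688019 alignments listed for the cell line, with 519 in the 14q32 window, 174 in the 15q11-q13 window and 285 in the 19q13.42 window. K562 is an established chronic myelogenous leukemia line with erythroid features, and untreated cells of 3 batches were sequenced and then pooled by the authors, so that every feature has 1 value and no replicate error. The study also holds 6 samples of HEK293 cells, an embryonic kidney line, that carried overexpression or control vectors with or without Dox, and these were not analysed here.

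The 14q32 domain expresses its non-coding RNAs, among them MEG3, from the maternal copy, and the same long transcripts carry the box C/D snoRNAs SNORD112, SNORD113 and SNORD114 and one of the largest human groups of miRNA hairpins, known mainly from brain, placenta and stem cells. The 15q11-q13 domain expresses SNORD116 and SNORD115 from the paternal copy inside the host transcript SNHG14, above all in neurons, and its loss causes Prader-Willi syndrome. The chromosome 19 miRNA cluster, C19MC, is found in primates, is made of repeated copies of related hairpins, and is known for its paternal expression in the placenta. A miRNA is cut from a hairpin by DROSHA and DICER, and the bases 2 to 8 of the mature strand, called the seed, select its targets. A typical box C/D snoRNA is released from an intron and guides 2′-O-methylation of other RNAs, with its short boxes C and D near its ends. Whether the snoRNAs of these arrays guide such changes was not examined.

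The 9 mature miRNAs that held the most reads at 14q32 are shown first, each with a seed of its own. Sequences are those of RefSeq, 5′ to 3′, and capitals mark the seed.
miR-127-3p: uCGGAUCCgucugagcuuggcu
miR-381-3p: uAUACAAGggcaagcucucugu
miR-379-5p: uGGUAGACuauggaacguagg
miR-493-5p: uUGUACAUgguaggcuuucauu
miR-370-3p: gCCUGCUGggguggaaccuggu
miR-654-3p: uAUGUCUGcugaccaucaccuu
miR-493-3p: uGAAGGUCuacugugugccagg
miR-411-5p: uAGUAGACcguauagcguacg
miR-494-3p: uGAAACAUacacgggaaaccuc

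The 9 mature miRNA names of C19MC with the most reads, summed over the hairpins of each name, are set out in the same way. miR-517b-3p and miR-517a-3p have the same bases, and capitals again mark the seed.
miR-512-3p: aAGUGCUGucauagcugagguc
miR-1323: uCAAAACUgaggggcauuuucu
miR-516b-5p: aUCUGGAGguaagaagcacuuu
miR-526b-5p: cUCUUGAGggaagcacuuucugu
miR-520a-3p: aAAGUGCUucccuuuggacugu
miR-516a-5p: uUCUCGAGgaaagaagcacuuuc
miR-520f-3p: aAGUGCUUccuuuuagaggguu
miR-517b-3p: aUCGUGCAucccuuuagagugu
miR-517a-3p: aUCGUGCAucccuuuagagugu

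For the snoRNA families, 1 reference gene of each is shown as it stands in GRCh37 (plus strand, DNA letters), with box C (TGATGA) and box D (CTGA, last match) in capitals. SNORD114-1 lies at chr14:101416170-101416241, SNORD116-1 at chr15:25296624-25296718 and SNORD115-1 at chr15:25415870-25415951.
SNORD114-1: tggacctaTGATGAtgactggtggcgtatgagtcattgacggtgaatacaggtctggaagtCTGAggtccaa
SNORD116-1: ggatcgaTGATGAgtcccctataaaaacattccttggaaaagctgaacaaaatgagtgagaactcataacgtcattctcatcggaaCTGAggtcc
SNORD115-1: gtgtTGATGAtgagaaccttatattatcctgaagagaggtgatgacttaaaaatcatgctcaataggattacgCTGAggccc

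The 3 windows differed first in the number of small RNA reads. The unit used is the recovered read, which is the deposited read count divided by how many near neighbours the alignment has in the list (same strand, start and end together shifted by up to 3 nt, itself counted in), because every deposited count was a whole multiple of that number. Over the genome 47670688 recovered reads were obtained, of which 36037395 were 18 nt or longer. The plus strand of the 14q32 window held 6709 recovered reads, that of the 19q13.42 window 1387 and that of the 15q11-q13 window 504. Among reads of 18 nt or longer the gap widened to 6223, 1312 and 25 reads, or 131, 27.5 and 0.524 per 1000000 recovered reads. Per kb of window this made 25.4 reads at 14q32, 13.5 at 19q13.42 and 0.106 at 15q11-q13, beside a mean of 6.30 per kb of each strand over the genome. Hairpins outside the windows held 17279625 of the 36037395 reads of that length, so this mean is not the value of typical sequence. The minus strands of the same windows, which hold no member, had 118, 21 and 101 reads of that length for 14q32, 19q13.42 and 15q11-q13. Per kb these were 0.482, 0.216 and 0.430. Only at 15q11-q13, of the 3 windows, was the minus strand higher than the plus strand at that length. At all lengths the minus strand there held 317 reads, fewer than the 504 of the plus strand.

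The windows also differed in read length. At 14q32 92.8% of plus-strand reads (95% Wilson interval 92.1 to 93.4, counting error only here and below) were 18 nt or longer, and at 19q13.42 94.6% (93.3 to 95.7) were. At 15q11-q13 4.96% were (3.38 to 7.22), which lies far below both other intervals. The read-weighted median length over all listed lengths was 22 nt at 14q32 and at 19q13.42, with quartiles of 21 and 22 nt and of 21 and 23 nt, and it was 14 nt at 15q11-q13, with quartiles of 13 and 15 nt. Over the whole genome the read-weighted median was 22 nt, and 24.4% of reads were under 18 nt. With each listed alignment counted once, the genome median was 16 nt. As libraries were selected for inserts of 20 to 40 nt, the lengths under that range are those that the selection did not aim at.

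Hairpins took most of the reads in both windows that have them. Of all plus-strand reads at 14q32, 91.0% lay inside a miRNA hairpin, 1.04% inside a snoRNA gene and 7.94% elsewhere. At 19q13.42, 88.7% lay inside a hairpin. Inside hairpins 98.1% of reads at 14q32 and 93.0% at 19q13.42 were 20 to 24 nt long, the length of a mature miRNA, compared with 96.6% for all other annotated hairpins of the genome. At 15q11-q13 the 71 snoRNA genes held 8.53% of the reads, and 91.5% lay elsewhere in the window.

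A hairpin or snoRNA gene is called active here when at least 10 recovered reads of 18 nt or longer lay wholly inside it on its strand (GENCODE 44, lifted to GRCh37). At 14q32, 34 of 50 hairpins were active (68.0%), and at 19q13.42 27 of 46 were (58.7%). The same rule called 21.5% of all 3049 annotated hairpins, and 594 of the 2953 hairpins outside the windows. Of the 51 snoRNA genes at 14q32 1 was active, and of the 71 at 15q11-q13 none was, beside 14.7% of all 1458 annotated snoRNA genes. Of 263 SNORD genes outside the windows and outside these families, 48.7% were active. Hairpins of 1 window lie in shared transcripts and are not replicates of each other, so these counts were given no test.

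The active hairpins of the windows were mostly of low abundance. Their median was 30.5 reads at 14q32 and 29 reads at 19q13.42, compared with 143.5 reads for active hairpins elsewhere. At 14q32, 10 hairpins reached 100 reads, 24 had 10 to 99, 8 had 1 to 9 and 8 had none. At 19q13.42, 3 reached 100 reads, 24 had 10 to 99, 15 had 1 to 9 and 4 had none. A count of 0 allows up to 3 reads, or 0.0629 per 1000000 recovered reads. In bulk RNA, a small share of cells with much of a miRNA cannot be told apart from little of it in every cell.

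At 14q32 a pair of hairpins held most of the hairpin reads. MIR127 (chr14:101349316-101349412), which lies opposite an exon of RTL1, a retrotransposon-derived imprinted gene, had 1871 reads (exact Poisson 95% interval 1787 to 1958), or 39.2 per 1000000 recovered reads. MIR381 (chr14:101512257-101512331), inside an intron of the long non-coding RNA MEG9, had 1265 reads (1196 to 1337). They made up 52.3% of the reads in the 50 hairpins, with MIR127 alone at 31.2%, and their intervals did not overlap. Even so, MIR127 stood at rank 143 among all annotated hairpins and MIR381 at rank 161.

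The next hairpins at 14q32 fell off quickly. MIR493 had 518 reads (474 to 565) and MIR379 406 (367 to 447), and these intervals did not overlap either. MIR411, MIR654 and MIR370 had 232, 227 and 223 reads, which differed by less than counting error. MIR409 had 194 reads, MIR494 158 and MIR889 102. Below 100 reads, MIR134, a miRNA known from neuronal dendrites, had 70 reads, and MIR410 had 14. The 10 leading hairpins held 86.6% of all hairpin reads of the window.

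The 14q32 hairpins are usually grouped by position into the MIR127 and MIR136 group around RTL1 and a long MIR379 to MIR656 row further along. In the first, 7 of 8 hairpins were active, with 2593 reads and a median of 30.5 per hairpin, and MIR665 was at 1 read. In the second, 28 of 42 were active, with 3281 reads, a median of 16.5 and a range of 0 to 1265. Of the 5 hairpins in neither group MIR370 was active, whereas MIR770 and 3 predicted hairpins without a miRNA name were at 0. These groups include the hairpins of RefSeq found in the window by exact sequence, among which MIR382 had 78 reads and MIR380 15, both annotated by GENCODE on the other strand.

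C19MC had a flatter profile. Its leading hairpin, MIR512-1 (chr19:54169927-54170024), had 138 reads (116 to 163), or 2.89 per 1000000 recovered reads, and its copy MIR512-2 had 119 (98.6 to 142), so that these intervals overlapped. MIR520A (chr19:54194135-54194219) had 103 reads, MIR1323 93, MIR526B 88, MIR516B1 63 and MIR520F 53. MIR517B had 39 reads, MIR516A1 36 and MIR517A 33. MIR498 and MIR519D, which are known from placenta, had 21 and 14 reads, and MIR1283-1 had 8. MIR512-1 held 11.5% of the reads of the 46 hairpins and the 10 leading hairpins 63.9%, compared with 31.2% and 86.6% at 14q32.

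MIR371A, MIR372 and MIR373, the stem cell hairpins next to C19MC, begin 24929, 25144 and 25959 nt beyond the end of the window and are thus no members of it. They had 113, 564 and 77 reads, and MIR372 stood above every C19MC hairpin.

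Reads were unevenly spread along both arrays, with most in the first part. When hairpins were put in chromosomal order and cut into 3 runs of about equal number, the first run at 14q32 (MIR770 to MIR323A) held 3549 reads (59.2% of hairpin reads), the second (MIR758 to MIR539, which includes MIR381) 1921 and the last (MIR889 to MIR656) 527 (8.79%). The active hairpins in these runs were 12 of 16, 13 of 17 and 9 of 17. At 19q13.42 the first run (MIR512-1 to MIR525) held 56.5%, the second 24.2% and the last 19.3%, with 9 of 15, 11 of 15 and 7 of 16 active. The median per hairpin was 30.5, 21 and 14 reads at 14q32 and 17, 18 and 7 reads at 19q13.42. MIR127 alone held 1871 of the 3549 reads of the first run at 14q32.

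Ends of the reads were sharp in both miRNA arrays. In the median active hairpin, 98.8% of reads at 14q32 and 96.4% at 19q13.42 differed from its most abundant alignment by at most 3 nt in total, beside 93.3% for active hairpins elsewhere. Those elsewhere had more reads (median 143.5 against 30.5 and 29) and more often showed both arms (67.8% against 50% and 63.0%). The shares were thus not compared at equal depth. The range ran from 61.5% to 100% at 14q32 and from 37.0% (MIR518C) to 100% at 19q13.42, and a low value can mean that both arms were present, as for MIR493 (64.5%). A mature miRNA with 10 or more reads at a hairpin was counted once for each such hairpin, which gave 42 cases at 14q32 (41 miRNAs) and 25 at 19q13.42 (22 miRNAs). At 14q32 the most abundant alignment began at the RefSeq 5′ end in 39 and matched both ends in 29. Of the 25 cases of C19MC it began there in 20, matched both ends in 13 and was tied between 2 starts in 1. All 42 and all 25 were within 3 nt in total.

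The arms differed between the arrays. With reads assigned to an arm by the midpoint of the hairpin, the 3′ arm was the more abundant at 14q32 in 28 of 34 active hairpins and held 4758 reads against 1239 from the 5′ arm. At 19q13.42 the 3′ arm led in 13 of 27, with 644 reads against 553. Of active hairpins elsewhere, 46.5% had more reads in the 3′ arm. MIR127 had 1806 reads in its 3′ arm and 65 in its 5′ arm, and MIR381 had 1264 and 1. MIR379 was the other way around, with 382 reads in the 5′ arm and 24 in the 3′ arm. MIR493 was the most even of the abundant hairpins, with 334 and 184. In C19MC, MIR512-1 gave 136 reads from the 3′ arm and 2 from the 5′ arm, whereas MIR1323 and MIR526B gave all of their 93 and 88 reads from the 5′ arm. Both arms were seen in 17 of 34 active hairpins at 14q32, in 17 of 27 at 19q13.42 and in 67.8% elsewhere, where hairpins had more reads.

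The seeds shown above were also distributed differently. Counted by name, the 41 mature miRNAs with 10 or more reads at a hairpin of 14q32 carried 38 seeds, and the 22 of C19MC carried 18. The seed of miR-127-3p alone held 29.6% of mature reads at 14q32 and that of miR-381-3p, shared with miR-300 of MIR300 (0 reads), 20.7%. miR-379-3p and miR-411-3p share AUGUAAC, and their 5′ arms have GGUAGAC and AGUAGAC. In C19MC the seed AGUGCUG of miR-512-3p held 21.6% of mature reads. The seed AAGUGCU was shared by miR-520a-3p, miR-520b-3p, miR-520c-3p, miR-520d-3p and miR-520e-3p, with 106 reads in all, and outside the window it is the seed of miR-372-3p, miR-373-3p and the miR-302 family. The seed UCUAGAG was shared by 11 mature miRNA names of the 5′ arm with 81 reads between them. Many of these names have the same bases throughout. They include miR-518e-5p, miR-519a-5p, miR-519b-5p, miR-519c-5p, miR-522-5p and miR-523-5p, whose sequence has 6 exact matches. Likewise miR-518d-5p, miR-520c-5p, miR-526a and miR-526a-5p are the same sequence, with 4 matches.

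For 7 mature miRNAs with 10 or more reads the most abundant alignment began at another base than in RefSeq, which moves the seed. The RefSeq form (ref) and the most abundant aligned form (K562) are shown for 5 of them, with the seed of each form in capitals.
miR-411-5p ref: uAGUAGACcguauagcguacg
miR-411-5p K562: aUAGUAGAccguauagcguacg
miR-127-5p ref: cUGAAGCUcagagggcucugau
miR-127-5p K562: uGAAGCUCagagggcucugauu
miR-520f-3p ref: aAGUGCUUccuuuuagaggguu
miR-520f-3p K562: cAAGUGCUuccuuuuagagggu
miR-520g-3p ref: aCAAAGUGcuucccuuuagagugu
miR-520g-3p K562: cAAAGUGCuucccuuuagagugu
miR-1283 ref: uCUACAAAggaaagcgcuuucu
miR-1283 K562: cUACAAAGgaaagcgcuuucugu

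miR-411-5p was split evenly, with 90 reads that began 1 nt before the RefSeq end and 89 at it. miR-127-5p had 28 reads that began 1 nt later and 31 at the RefSeq end. All 53 reads of miR-520f-3p began 1 nt before the RefSeq end. That form has the seed AAGUGCU, the one that miR-520a-3p to miR-520e-3p have in RefSeq. miR-520g-3p began 1 nt later in 18 of 26 reads, with the seed AAAGUGC that RefSeq gives to miR-519d-3p and, outside the window, to miR-17-5p, miR-20a-5p, miR-93-5p and their relatives. All 14 reads of miR-1283 at MIR1283-2 began 1 nt later, with the seed UACAAAG of miR-524-5p. When every read was assigned the seed of its own 5′ end, AAGUGCU held 160 reads (13.7% of C19MC mature reads) in place of 106, UACAAAG 34 in place of 13 and AAAGUGC 28 in place of 11. In the other 2 of the 7, miR-337-3p and miR-518c-5p, the leading form also began 1 nt later. For miR-523-3p the RefSeq form and a form that began 1 nt later were tied at 4 reads each.

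The 3′ ends moved more often. Of the 42 cases at 14q32 the most abundant alignment ended at the RefSeq end in 31, before it in 7 and after it in 4. At 19q13.42 these numbers were 15, 5 and 5 of 25. miR-654-3p had 123 of its 195 reads in a form 2 nt shorter than in RefSeq, and 152 of the 157 reads of miR-494-3p were in a form 1 nt longer. Neither change moves the seed.

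Repeated sequence set how far a read can be assigned to 1 hairpin. At 14q32 98.7% of plus-strand reads of 18 nt or longer had a sequence with 1 exact match in GRCh37, while at 19q13.42 50.6% did and at 15q11-q13 10 of 25 reads did. As the authors state that mapped reads were unique, these matches of the listed positions show that sequences with several exact copies were listed too. Both copies of miR-512-3p, for example, match the genome at 2 places, and the 22-nt form was listed with 76 reads at MIR512-1 and with 70 at MIR512-2. miR-516b-5p had 63 and 30 reads at its copies, miR-516a-5p 36 and 27, and miR-1283 14 and 8. Reads of such copies are best read as a sum, which was 252 for miR-512-3p. With only alignments of 1 exact match, 15 of 46 hairpins at 19q13.42 and 30 of 50 at 14q32 were active.

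The same measure over the genes, rather than over the reads, gave the share of 20-nt stretches that match GRCh37 once. Its median was 98.7% for the hairpins of 14q32 and 45.6% for those of 19q13.42, where 7 hairpins had none. For the snoRNAs it was 96.2% at 14q32 and 27.4% at 15q11-q13, where 20 of 71 genes had none, compared with 96.0% for SNORD genes elsewhere. The 45 SNORD115 genes comprised 39 distinct sequences and the 25 SNORD116 genes 22, whereas the 30 SNORD114 genes and the 15 SNORD113 genes were all distinct.

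The snoRNAs at 14q32 were detected at low levels. Their 51 genes held 66 reads of 18 nt or longer, or 17.7 per kb of gene, compared with 1311 per kb for the hairpins of the window and 12148 per kb for SNORD genes elsewhere. The last value pools 263 genes of very uneven counts and is not that of a typical gene. Of these, 147 had any such read, and the highest held 43167 of their 285425 reads. SNORD114 genes held 49 reads and SNORD113 genes 17, and the 6 genes named SNORD112 had none. SNORD114-9 (chr14:101432366-101432437) had 18 reads (10.7 to 28.4) and was the active one. SNORD114-22 had 9 reads, SNORD114-21 and SNORD113-7 had 6 each, SNORD113-3 and SNORD113-6 had 3 each, and SNORD113-4, SNORD113-8, SNORD114-1, SNORD114-3 and SNORD114-23 had 2 each. SNORD113-1 had none. The interval of SNORD114-9 overlapped that of SNORD114-22 (4.12 to 17.1), and the genes of 2 reads (0.242 to 7.22) lay below it.

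Their fragments were longer than miRNAs and lay at the gene ends. The read-weighted median length was 33 nt, and 77.1% of reads were 25 nt or longer, compared with a median of 26 nt and 54.0% for SNORD genes elsewhere. Of the 66 reads, 52 ended within 5 nt of the 3′ end of the gene and 13 began within 5 nt of its 5′ end. The most abundant fragments of SNORD114-9, SNORD114-22 and SNORD114-21 covered the same bases of the gene, 35 to 67, and ended 2 nt after box D (CTGA, in capitals). They are shown with the leading 5′ fragment of SNORD113-7, which covers bases 3 to 37 and in which the capitals mark an inner match of the same 4 bases.
SNORD114-9, chr14:101432400-101432432: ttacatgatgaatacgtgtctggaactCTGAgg
SNORD114-22, chr14:101449297-101449329: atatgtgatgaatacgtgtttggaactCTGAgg
SNORD114-21, chr14:101448346-101448378: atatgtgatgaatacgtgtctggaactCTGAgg
SNORD113-7, chr14:101407465-101407499: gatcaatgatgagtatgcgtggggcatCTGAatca

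These fragments rested on 7, 7, 6 and 2 reads, and each sequence had 1 exact match in GRCh37. A search of whole genes for TGATGA and of their last 15 bases for CTGA, on the strand of the gene, found both in 30 of 51 snoRNA genes at 14q32, in 65 of 71 at 15q11-q13 and in 43.0% of SNORD genes elsewhere.

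At 15q11-q13 the snoRNAs gave nearly no reads of the selected length. Of 71 genes, 3 had 1 read each of 18 nt or longer, namely SNORD116-3, SNORD116-17 and SNORD115-38, and these sequences match GRCh37 at 6, 6 and 17 places. At all lengths 20 genes had 43 reads in all. SNORD116-1, SNORD116-8 and SNORD116-9 led with 6 reads each, which were largely of a 12-nt sequence with 61 exact matches. SNORD115-1 and SNORD109B had none at any length. As several copies share most sequence and multiple matches were listed, as for miR-512-3p, the reads were summed by family. SNORD116 had 33 reads at all lengths and SNORD115 10, of which 2 and 1 were 18 nt or longer. The 12-nt sequence has more matches (61) than the 25 SNORD116 genes, so its reads cannot be assigned to that family alone. Fragments longer than 40 nt, intact snoRNAs included, were outside the insert selection.

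What was listed at 15q11-q13 was short and repeated in the genome. Of its plus-strand reads 8.73% had a sequence with 1 exact match, beside 92.5% at 14q32 and 48.0% at 19q13.42. The most abundant species, shown here because it alone held 150 of the 504 reads, was a 14-nt sequence at chr15:25433887-25433900.
15q11-q13, 14 nt: acgaggccctgggt

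It matches GRCh37 at 11 places, and 10 of them were listed, with 143 to 171 reads each and 1524 in all, so that the reads at this window were like those at the other places. A 16-nt species at chr15:25413817-25413832 (30 reads) matched at 5 places, with 18 to 33 reads each. The leading species outside annotated genes at 14q32 was also of 14 nt (51 reads) and was listed at 19 places with 33 to 52 reads each. At 19q13.42 the leading one of 18 nt or longer was a 24-nt sequence at chr19:54196092-54196115 with 17 reads and 1 exact match.
19q13.42, 24 nt: tatcaacaacttttcctacgtaga

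The long transcripts that carry the arrays gave few reads in this size range. On the plus strand, 42 of 55 hairpins at 14q32, counting those found by RefSeq sequence, lay in introns and 6 in exons of MEG3, MEG8, MEG9 or MIR493HG, and all 71 snoRNAs at 15q11-q13 lay inside SNHG14, 24 of them in an exon of some isoform. The exons of MEG3 without small RNA genes held 4 reads of 18 nt or longer (0.172 per kb), those of MEG8 11 (0.400 per kb) and those of MEG9 none, whereas those of MIR493HG held 6 (1.42 per kb). The exons of SNHG14 held 24 reads (0.196 per kb). Over all genes the median was 1.17 reads per kb of exon for protein-coding genes and 0 for lncRNAs, with an upper quartile of 0.427 for the latter, so that MEG3, MEG8 and SNHG14 lay between the median and the upper quartile of lncRNAs and MIR493HG above it and above the median of coding genes. Of the coding genes of these domains, DLK1 had 11 reads, UBE3A 78 and NDN 1, and RTL1, DIO3, SNRPN, SNURF and MAGEL2 had none. Elsewhere, H19 had 306 reads of which its hairpin MIR675 had 302, MIR335 had 397, GNAS 122, KCNQ1OT1 69, PEG3 6, ZIM2 3 and MIR483 2. MEST, IGF2, PEG10 and NNAT had none, and IPW was not annotated.

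The cell type labels were checked with marker genes. Reads of 18 nt or longer were found in the globin exons of HBG1 (278), HBG2 (287), HBE1 (266), HBA1 (100) and HBZ (15), in TFRC (355), KLF1 (34) and GATA1 (21), and MIR144 had 35349 and MIR223 71550. Of markers of placenta or stem cells, where C19MC is best known, CGA had 9 reads and PSG1 1, POU5F1 and LIN28A none, and MIR302A, MIR302B, MIR302C, MIR302D and MIR367 had 27, 17, 4, 6 and 0. Per kb of exon, CGA had 4.54 reads, above the upper quartile of 4.15 for protein-coding genes, and PSG1 had 0.202. The erythroid genes named above ran from 12.9 (HBZ) to 341 (HBG2) per kb of exon. Of neuronal hairpins MIR124-2 and MIR124-3 had 10 and 6 reads, whereas MIR9-3 and MIR9-2 had 6855 and 6965 and MIR9-1 had 1. Exact matches were not counted for these hairpins, so reads of sequence shared between MIR9 or MIR124 genes were not told apart. MIR486-1 and MIR124-1 were not found in the annotation used here. The part of any other cell type in the results for the windows was not tested.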

How the data were processed

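The authors sequenced small RNA from untreated K562 cells (3 batches, inserts of 20 to 40 nt, reads of 50 nt), and reads said to map uniquely to GRCh37 with Bowtie2 2.2.9 were pooled. The authors deposited for each alignment a read count and its RPKM. In the median alignment, the deposited RPKM equals that count over length and a total of 54140681 reads. Counts were divided by the number of near neighbours before use. Simulated counts built by that same rule were recovered, which checks the arithmetic and not how the deposited counts were made. The total of recovered reads, 47670688, is below that RPKM total, and the reason was not tested. It sets the precision, and since reads carry no molecular identifiers, intervals cover counting error only. Per-batch depth was not analysed here. No test was made, as no value has a replicate.

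Hairpins and snoRNAs came from GENCODE 44 on GRCh37. Mature miRNAs came from RefSeq (table of build GRCh38.p14) and were placed by exact sequence. Of hairpins that GENCODE lacks on the plus strand, 5 were found at 14q32 and 1 at 19q13.42 in this way. Exact matches were counted on both strands. The members and lists were chosen with earlier results of these data known. Named are the 10 leading hairpins or snoRNAs of each class and window, fixed lists of cluster, imprinted and marker genes, and species singled out after their values were seen. 1 marker of the fixed lists is not reported here. Alternatives changed the read column, length minimum, overlap rule, match rule, read minimum, weighting, leading member and hairpin set. Python 3.11.15, numpy 2.4.6, pandas 2.3.3, scipy 1.17.1, numba 0.67.0 and matplotlib 3.10.9 were used.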

Additional observations from a re-analysis of the deposited data

How the results depend on the processing

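No paired analysis was possible because the deposited values pool the batches and no result comes from a test. On the annotated genes, 6063 reads were held at 14q32, 1197 at 19q13.42 and 3 at 15q11-q13. With the read count as deposited these became 49263 at 14q32 and 5210 at 19q13.42, since abundant species have more near neighbours. Without the leading member they were 4192 and 1059. With only alignments of 1 exact match in GRCh37 they were 625 at 19q13.42 and 0 at 15q11-q13. With all listed lengths 15q11-q13 had 43 reads, and its median length, 19 nt over 3 reads, fell to 12 nt. The number of active hairpins or snoRNAs, 35 at 14q32 and 27 at 19q13.42, was 10 and 3 with a minimum of 100 reads. With a minimum of 2 reads it was 51 and 41, and with 1 exact match 31 and 15. It was 0 at 15q11-q13 under every alternative run. The order of the windows by reads was the same under all of these. Adding hairpins found by RefSeq sequence, which was chosen after seeing the data, moved no read sum or median length by more than counting error. The number of active members became 37 at 14q32 and stayed at 27 at 19q13.42. Depth limits members of few reads: at 9 reads the counting interval runs from 4.12 to 17.1.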

Other observations

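The minus strands of the windows hold no member of the arrays described above, and no hairpin or snoRNA of them lies opposite the species given here for chromosomes 14 and 15. At 14q32 the leading minus-strand species was 17 nt long, at chr14:101523638-101523654, with 837 of the 1673 minus-strand reads and 1 exact match in GRCh37, which puts it below MIR127 and MIR381 and above every other element of the window in recovered reads. Forms of 15 and 16 nt that began later and had the same 3′ end had 212 and 204 reads. The 15-nt form matched at 6 places, listed with 210 to 243 reads each.
14q32 minus strand, 17 nt: gttctagaacaaattgc

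At 15q11-q13 the leading minus-strand species of 18 nt or longer was a 21-nt sequence at chr15:25301464-25301484, with 26 reads and 1 exact match, more than any alignment of that length on the plus strand of the window. Neither species has an annotated small RNA gene of these arrays, and their origin was not tested.
15q11-q13 minus strand, 21 nt: ctgactgtgtcactttctaga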
